A study of Mus musculus with 30 samples.

Results

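Collagens, laminins, other basement membrane proteins, matricellular proteins, matrix metalloproteinases and their inhibitors were examined in luminal and basal cells sorted from mouse mammary glands. The members were chosen by gene symbol alone: every gene in the table named as a collagen alpha chain, a laminin chain, a nidogen, perlecan (Hspg2), agrin (Agrn), fibronectin (Fn1), Sparc, tenascin C (Tnc), a fibulin, a thrombospondin, a Timp or an Mmp. This gave 57 of the 11137 genes in the table, of which 56 are described here, in 12 groups by role. They comprised 29 collagen chains, 8 laminin chains, 3 nidogens or heparan sulfate proteoglycans, 8 adhesive or matricellular proteins, 4 metalloproteinase inhibitors and 4 matrix metalloproteinases.

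The study asked what loss of Rank, the receptor for Rankl encoded by Tnfrsf11a, does in luminal cells of glands that had or had not gone through pregnancy. All mice carried K8rtTA, TetO-Cre and the mTmG reporter (K8imTmG, the control genotype), and K8iΔRank mice also carried Rank fl/fl. All of them, controls included, drank doxycycline at 1 mg/ml between weeks 3 and 8 of age by the labels (the study's methods state another starting week and length). The keratin 8 promoter, which is active in luminal cells, drove rtTA, and TetO-Cre depended on rtTA and doxycycline. Basal cells of K8iΔRank mice were therefore not the target of the deletion. The parous glands were taken after involution, and in the study K8iΔRank dams lost their litters at the start of lactation whereas control pups were removed later, so that parous genotypes differed in how long they lactated. Age at collection is not given in the labels.

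By the numbers in the labels, the 30 libraries came from 17 mice, 13 of which gave both lineages. Luminal cells gave 3 virgin K8imTmG, 3 virgin K8iΔRank, 5 parous K8imTmG and 4 parous K8iΔRank libraries. Basal cells gave 3 virgin K8imTmG, 4 virgin K8iΔRank, 4 parous K8imTmG and 4 parous K8iΔRank libraries. The sort gates used CD24 and CD49f after removal of CD45 and CD31 positive cells. In the study luminal cells were also gated on GFP, which marks recombined cells. CD49f is an integrin that binds laminin.

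The basement membrane is a thin sheet of matrix under epithelia. Its polymers are laminin heterotrimers of an alpha, a beta and a gamma chain and a network of collagen IV, which nidogen and perlecan link. In the mammary gland the basal, myoepithelial layer lies on it, and luminal cells sit mostly on the basal layer. The laminin that holds Lama3 and Lamb3, together with collagen XVII and collagen VII, anchors basal cells through hemidesmosomes and anchoring fibrils. Fibrillar collagens I, III and V belong mainly to the stroma, and matrix metalloproteinases and Timps set how fast matrix is broken down.

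Values are normalized counts, 3′ end reads per gene divided by a size factor for each library, and a called gene is one with an adjusted p below 0.05 (limma on log2 of the normalized count plus 1, Benjamini-Hochberg adjustment over all genes tested). Differences are on that log2 scale, which understates the change of low genes. Values of different genes cannot be set against each other as amounts.

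Libraries held 340445 to 3130419 reads, with a median of 1853588, and basal virgin K8imTmG libraries were shallow: 3 reads corresponded to as much as 16.3 normalized counts there. Basal markers (10 of 10 listed) summed to 65.3 to 331 in luminal libraries and 10952 to 17879 in basal libraries. Krt5, a basal keratin, was 2.46 to 17.7 in luminal and 811 to 1463 in basal libraries, and Krt8, a luminal keratin, was 994 to 3134 and 201 to 664, respectively. Markers of other cells were present, with the fibroblast list (11 of 18 genes in the table) at 75.5 to 1221 in luminal and 856 to 1625 in basal libraries and the endothelial list (10 of 12) at 22.5 to 178 and 119 to 1746. Schwann cell markers (6 of 7) reached 6002 in 1 basal library. Of the defining markers, fibroblast Dcn and endothelial Pecam1 were above 0 in every library (at least 33.5 and 1.60), and endothelial Cdh5 was at 0 in some luminal libraries. The libraries also fell into 14 with high and 16 with low Clec2d, a lectin gene, and in both lineages this split ran along the virgin genotype comparison: in luminal cells virgin K8imTmG libraries were low and virgin K8iΔRank libraries high, and in basal cells the reverse held. By qPCR the study found less Rank transcript in sorted, GFP positive luminal cells of K8iΔRank than of control mice. In the libraries here the Rank transcript overlapped between genotypes in luminal cells. It measured 18.6, 14.2 and 9.57 in virgin K8imTmG against 18.9, 11.5 and 23.8 in virgin K8iΔRank libraries, and 12.8 to 64.9 in parous K8imTmG against 27.0 to 41.1 in parous K8iΔRank libraries, and 3′ reads do not show an internal exon deletion.

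In basal cells the matrix genes stood far above their level in luminal cells. Of the 56 members described, 47 were higher in basal and 3 in luminal cells (6 not called), where 27% of all 11133 genes tested were higher in basal and 28.7% higher in luminal cells. The median log2 difference, luminal minus basal, was -2.91 over the members and 0.035 over all genes. The lineage fit did not pair the libraries of a mouse, so its p values and SEs treat all libraries as independent. With the mouse as a block, Lama3 was at -4.15 (SE 0.13, adjusted p = 1.40e-13) and Col14a1 at -7.16 (SE 0.26, adjusted p = 3.99e-13). The filter kept genes above 10 normalized counts in 25% of the libraries. Members such as Col17a1 (luminal values up to 5.05) and Mmp2 (up to 3.20) passed it only through basal libraries, where they were high. Their adjusted p values and their part in the median are thus not independent of that filter. In 32 members every basal library stood above every luminal library, as did 6.14% of all genes, and 1 member (Mmp15) had every luminal library above every basal library, as did 3.43% of all genes. Fewer cells of a type and less RNA per cell cannot be told apart in such bulk libraries.

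**Figure D1:**
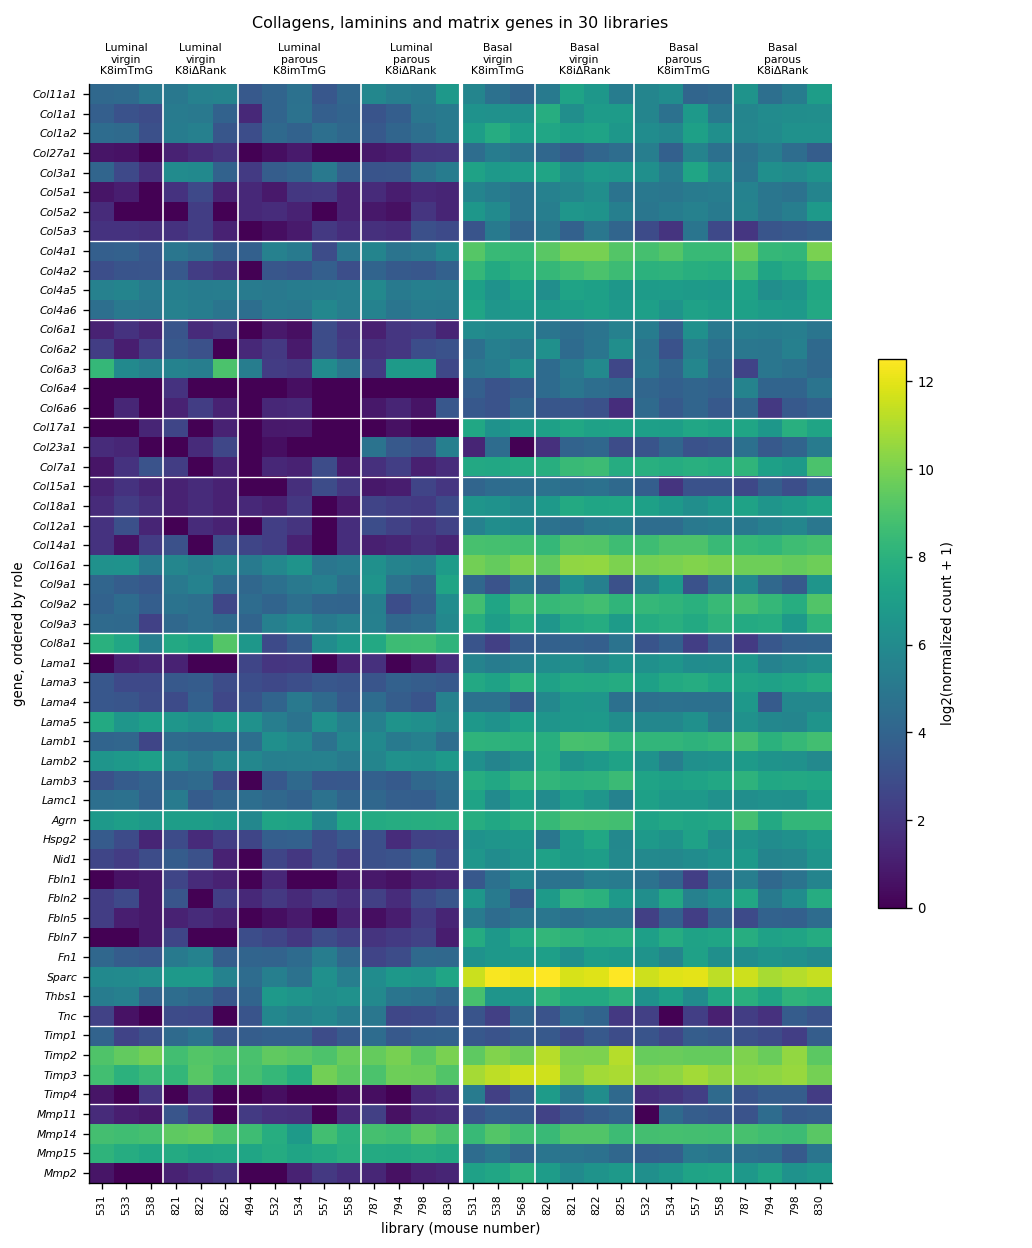
Heat map of the 56 members (rows, by role) in the 30 libraries (columns, by mouse number within the 8 groups), coloured by log2 of the normalized count plus 1, from dark (low) to yellow (high), with white lines between groups and roles. Most rows are darker in the 15 luminal than in the 15 basal libraries, and Col8a1 and Mmp15 show the opposite.

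Collagen IV chains, which build the basement membrane network, showed this clearly for the pair transcribed head to head on chromosome 8. Col4a1 (GRCm39 chr8:11248423-11362826, minus strand) measured 6.39 to 55.6 (median 27.0) in the 15 luminal libraries and 305 to 1012 (median 567) in the 15 basal libraries. Col4a2 (chr8:11362471-11499287, plus strand) measured 0 to 15.6 (median 8.83) and 158 to 495 (median 267), respectively. Neither gene's lineages overlapped, and the log2 differences were -4.54 (SE 0.23, adjusted p = 2.74e-16) and -5.12 (SE 0.26, adjusted p = 2.76e-16). The other head to head pair, Col4a5 and Col4a6 on the X chromosome, differed less, by -1.47 (SE 0.13) and -1.85 (SE 0.13) on the log2 scale. Col4a6 measured 21.8 to 54.3 in luminal and 88.3 to 187 in basal libraries, without overlap.

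Anchoring collagens were low in luminal libraries. Col17a1, a transmembrane collagen of hemidesmosomes, was 0 to 5.05 (median 0) in luminal and 82.7 to 234 (median 149) in basal libraries, with 3 or more reads in 1 of 15 luminal libraries. Col7a1, the anchoring fibril collagen, was 0 to 8.10 (median 1.60) and 112 to 492 (median 217), with 3 or more reads in 8 of 15 luminal libraries. The log2 differences of -6.61 (SE 0.22, adjusted p = 1.44e-20) and -6.32 (SE 0.28, adjusted p = 1.04e-17) became -4.98 and -5.24 with a pseudocount of 4. The transmembrane Col23a1 differed by -1.56 (SE 0.38) with overlapping lineages.

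Laminin chains did not move as a block. Among the chains of the hemidesmosome laminin, the alpha chain Lama3 measured 5.60 to 13.8 (median 8.75) in luminal and 136 to 250.0 (median 187) in basal libraries (log2 -4.23, SE 0.12, adjusted p = 9.17e-22), and the beta chain Lamb3 0 to 21.9 (median 11.5) and 139 to 362 (median 184; log2 -4.15, SE 0.27). Of the chains of the laminin of early epithelia, Lama1 differed by -5.04 (SE 0.24), Lamb1 by -3.68 (SE 0.18) and Lamc1 by -2.32 (SE 0.18). Lama4, found mostly in vessel laminin, differed by -1.44 (SE 0.28), and its group means ranged from 8.35 to 68.2. Lama5, an alpha chain of many epithelial basement membranes, measured 26.5 to 194 in luminal and 34.1 to 130.4 in basal libraries and did not pass the test (log2 0.036, SE 0.16, adjusted p = 0.868). Lamb2 was near the threshold, at -0.39 (SE 0.15, adjusted p = 0.0280), and was not called with the mouse as a block (-0.42, adjusted p = 0.143) or without mouse 531, 532, 558, 787, 820 or 822.

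Linker proteins of the basement membrane were also higher in basal cells. Nid1, a nidogen, measured 0 to 13.4 (median 5.96) in luminal and 48.6 to 141 (median 81.9) in basal libraries (log2 -3.71, SE 0.26), and Hspg2, which encodes perlecan, differed by -3.81 (SE 0.25). Agrn, a heparan sulfate proteoglycan, differed by less (-0.95, SE 0.15), and its luminal values of 53.8 to 229 overlapped basal values of 144 to 468. The multiplexin Col18a1, source of endostatin, measured 0 to 5.96 and 59.8 to 196 (log2 -5.12, SE 0.18), and its relative Col15a1 differed by -2.38 (SE 0.28).

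**Figure D2:**
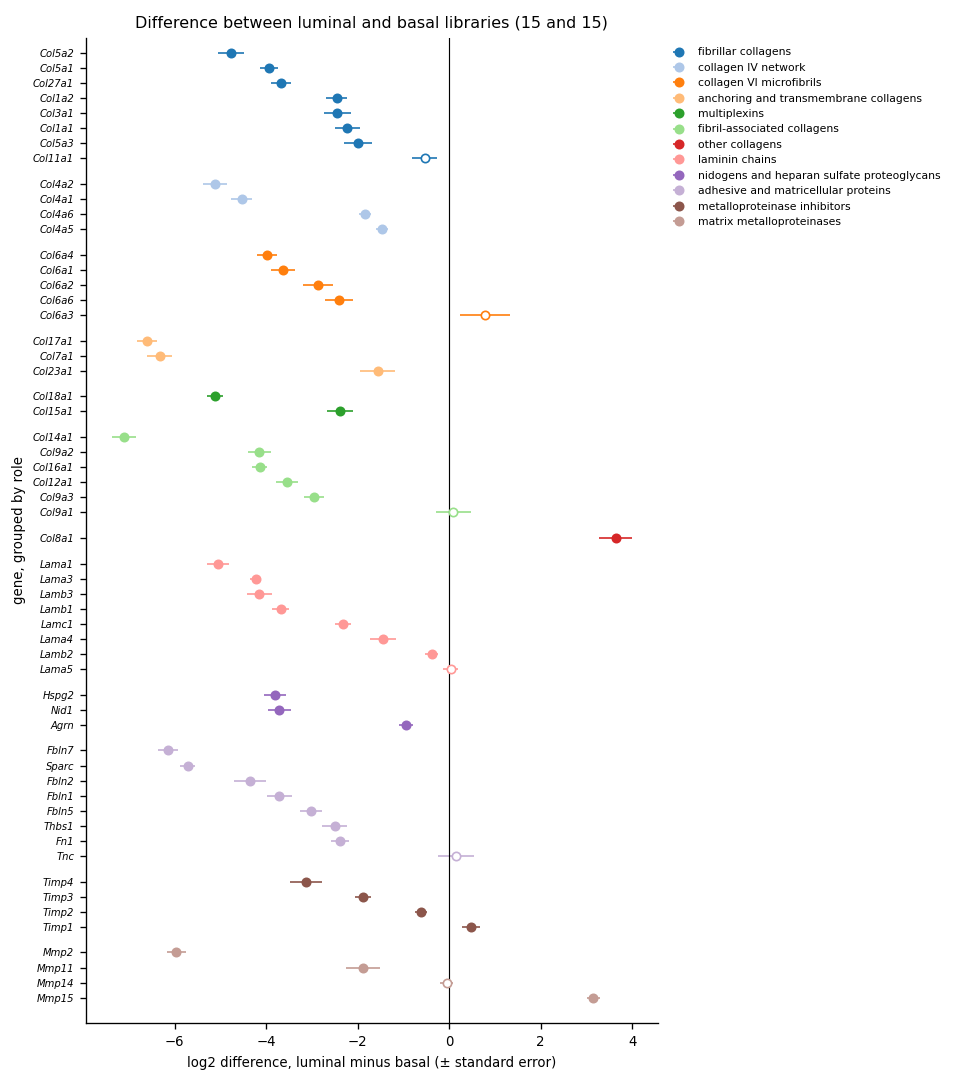
Log2 difference, luminal minus basal, of the 56 members (x axis, on the scale of log2 of the normalized count plus 1; colours give the role, filled points were called, open points were not, and lines are ± SE). Points left of 0 are higher in basal cells: 47 members lay there as called, with Col14a1 at -7.11, and 3 called members (Col8a1, Mmp15 and Timp1) lay right of 0.

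Fibrillar collagens, usually counted as stromal, were also higher in basal libraries. Col5a2 differed by -4.77 (SE 0.28), Col5a1 by -3.94 (SE 0.20) and Col27a1 by -3.67 (SE 0.22), and their luminal and basal values did not overlap. Col1a2 measured 6.72 to 42.3 (median 18.4) in luminal and 51.9 to 215 (median 98.8) in basal libraries (log2 -2.46, SE 0.22, adjusted p = 8.33e-11), again without overlap. Col1a1 (-2.22, SE 0.28) and Col3a1 (-2.44, SE 0.30) overlapped between lineages, at 1.68 to 35.3 and 2.21 to 65.6 in luminal and 24.1 to 224 and 27.9 to 163 in basal libraries. Col5a3 (group means 1.33 to 22.6) was also called, and Col11a1 (15.4 to 80.4) was not (-0.53, SE 0.28, adjusted p = 0.103; called with the mouse as a block, -0.63, adjusted p = 0.0330). The fibroblast marker sum was higher in basal libraries too, at a median of 1269 against 420.0, and Dcn, a stromal proteoglycan gene, was 33.5 to 938 in luminal and 311 to 677 in basal libraries. The part of fibroblasts in these differences was not tested.

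The fibril associated collagens held the member with the greatest difference. Col14a1, which binds collagen I fibrils, measured 0 to 7.57 (median 2.16) in luminal and 303 to 569 (median 418) in basal libraries (log2 -7.11, SE 0.26, adjusted p = 1.79e-19; -6.06 with a pseudocount of 4). Col16a1 measured 28.8 to 114 and 694 to 1445 (log2 -4.14, SE 0.16), and Col9a2 and Col12a1 differed by -4.15 (SE 0.25) and -3.54 (SE 0.25), all without overlap. Col9a3 (group means 14.0 to 227) was called and Col9a1 (12.5 to 71.8) was not. Of the collagen VI chains, which form beaded microfibrils, Col6a4 gave 3 reads in all luminal libraries and 374 in basal libraries, a depth corrected ratio of 184 (95% exact interval for counting error 62.6 to 899). Col6a1 (-3.63, SE 0.27), Col6a2 (-2.86, SE 0.32) and Col6a6 (-2.40, SE 0.31) were called as well, whereas Col6a3 was not, with values of 3.09 to 493 in luminal and 4.72 to 70.6 in basal libraries.

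Col8a1 and Mmp15 went the other way. Col8a1, a short chain network collagen, measured 6.00 to 573 (median 168) in luminal and 3.43 to 25.8 (median 10.9) in basal libraries (log2 3.64, SE 0.36, adjusted p = 6.89e-10), with overlap from low libraries of parous K8imTmG mice. Mmp15, a membrane type metalloproteinase, measured 160 to 282 (median 192) and 10.6 to 31.9 (median 22.7; log2 3.15, SE 0.15, adjusted p = 3.58e-17), without overlap. Mmp2, a gelatinase, was 0 to 3.20 (median 1.26) in luminal and 61.4 to 261 (median 107) in basal libraries (log2 -5.96, SE 0.21). Mmp14, the membrane type activator of Mmp2, did not differ by the test (-0.053, SE 0.15, adjusted p = 0.779) and had group means of 282 to 644, and Mmp11 differed by -1.89 (SE 0.37).

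Among matricellular and adhesive proteins Fbln7, a fibulin, had the largest difference (-6.14, SE 0.22). Sparc, a collagen binding protein, measured 20.2 to 164 (median 66.2) in luminal and 1883 to 5833 (median 3429) in basal libraries (log2 -5.72, SE 0.17, adjusted p = 1.88e-21). Fbln2 (-4.36, SE 0.35) and Fbln1 (-3.71, SE 0.27) had the next differences, and Fbln5 (group means 0.516 to 27.9) was called in the same direction. Thbs1, which binds matrix and activates latent TGF beta, differed by -2.50 (SE 0.27), and Fn1, the fibronectin gene, measured 4.95 to 46.2 and 50.8 to 143 (log2 -2.39, SE 0.21). Tnc did not differ by the test (0.14, SE 0.39, adjusted p = 0.774). Of the Timps, which inhibit metalloproteinases, Timp4 (-3.13, SE 0.35), Timp3 (-1.88, SE 0.17) and Timp2 (-0.62, SE 0.14) were higher in basal cells, and Timp1 was higher in luminal cells (0.48, SE 0.20, adjusted p = 0.0409). The Timp1 call was lost with the Clec2d side as a covariate (adjusted p = 0.0732) and in 8 of 17 fits that left out 1 mouse (without 531, 532, 534, 538, 787, 798, 821 or 822; adjusted p up to 0.115). The Timp3 values were 223 to 920.3 in luminal and 949 to 3103 in basal libraries, with no overlap.

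Short stretches of promoter are given for collagens that were far higher in basal cells, because the pair Col4a1 and Col4a2 shares its start region and Col17a1 is among the strongest differences. They are from RefSeq on build GRCm38.p6, in the direction of the named gene, and capitals mark the motif.
Col17a1 (chr19:47692165-47692194, minus strand, motif starting 140 bases before the start site): ttcccgcaggtcTATAAAtggttaatctac
Col17a1 (chr19:47692116-47692145, minus strand, motif starting 91 bases before the start site): tttctgcccgtcTATAAAgtgtggttcctg
Col6a1 (chr10:76726116-76726145, minus strand, motif starting 90 bases before the start site): tgctgatgctgTGACTCActcagctttgag
Col4a2 (chr8:11312601-11312630, plus strand, motif starting 192 bases before the start site): gtggcgcgcccgGGGCGGcaggggaccagc

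The motifs searched were the TATA box as TATAAA, the AP-1 site as TGANTCA and the GC box as GGGCGG, on both strands from 250 bases before to 50 after each start site, and no 2 of them can overlap. RefSeq windows matched 44 of the 56 described members and 8668 genes of the table. Among the 35 matched members that were higher in basal cells, the TATA box was found in 5.71%, the AP-1 site in 2.86% and the GC box in 74.3%. Among all matched genes these shares were 8.54%, 6% and 71.7%.

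Within luminal cells the laminin chain Lamb2 differed with genotype and stage. Lamb2, a laminin beta chain (chr9:108356935-108367729), measured 89.7, 104 and 132 in virgin K8imTmG, 51.7, 32.7 and 52.8 in virgin K8iΔRank, 53.8, 41.2, 43.2, 44.7 and 35.0 in parous K8imTmG and 50.6, 80.6, 73.0 and 107 in parous K8iΔRank libraries. Its values in virgin K8imTmG libraries stood above those in virgin K8iΔRank and parous K8imTmG libraries without overlap. The parity difference in K8imTmG mice was -1.29 on the log2 scale (SE 0.23, adjusted p = 0.0285). The test of whether the genotype difference differed between stages called Lamb2 (2.03, SE 0.36, adjusted p = 0.00786), 1 of the 32 members described here and tested, where 12.9% of 10262 genes were called. It stayed called in 15 of 15 fits that left out 1 mouse. With the Clec2d side as a covariate the value was 2.45 (adjusted p = 0.0785), so genotype by stage and the Clec2d split cannot be told apart. The parity call held without mouse 494 and was lost without each other mouse (adjusted p up to 0.118).

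Between virgin luminal genotypes none of the 28 members described here and tested was called, where 0.984% of 10066 genes were called, and the other 28 did not pass the filter on low values there. Of those tested, 6 had an unadjusted p below 0.05, as did 22.1% of all genes. Lamb2 had the lowest p, with a difference of -1.24 (SE 0.29, adjusted p = 0.0659). Col3a1, a fibrillar collagen of the stroma, measured 16.0, 5.77 and 2.21 in K8imTmG and 65.6, 59.6 and 14.5 in K8iΔRank libraries, with overlap (log2 2.47, SE 0.70, adjusted p = 0.0898). edgeR called 138 genes and none of these members, and DESeq2 called 648 genes, Lamb2 and Col3a1 among them. The basal marker sum was 78.8, 89.7 and 97.9 in K8imTmG and 331, 104 and 218 in K8iΔRank libraries, and the fibroblast sum 781, 435 and 1055 against 917, 808 and 1221. The basal gene Acta2 differed by 1.56 (adjusted p = 0.0898) and was not called. The part of these cells in the members' differences was not tested.

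Lama3, Lamb3, Lama5, Lamb1 and Lamc1 did not pass these tests in luminal cells. In the test of genotype by stage Lama3 was at 0.15, Lamb3 at 0.90, Lama5 at 0.91, Lamb1 at -0.81 and Lamc1 at -0.17 on the log2 scale, each with an adjusted p of at least 0.222. Lamb1 was higher in parous than virgin luminal libraries without overlap in both genotypes, by 1.81 (adjusted p = 0.0830) and 1.00 (adjusted p = 0.0615), and was not called.

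**Figure D3:**
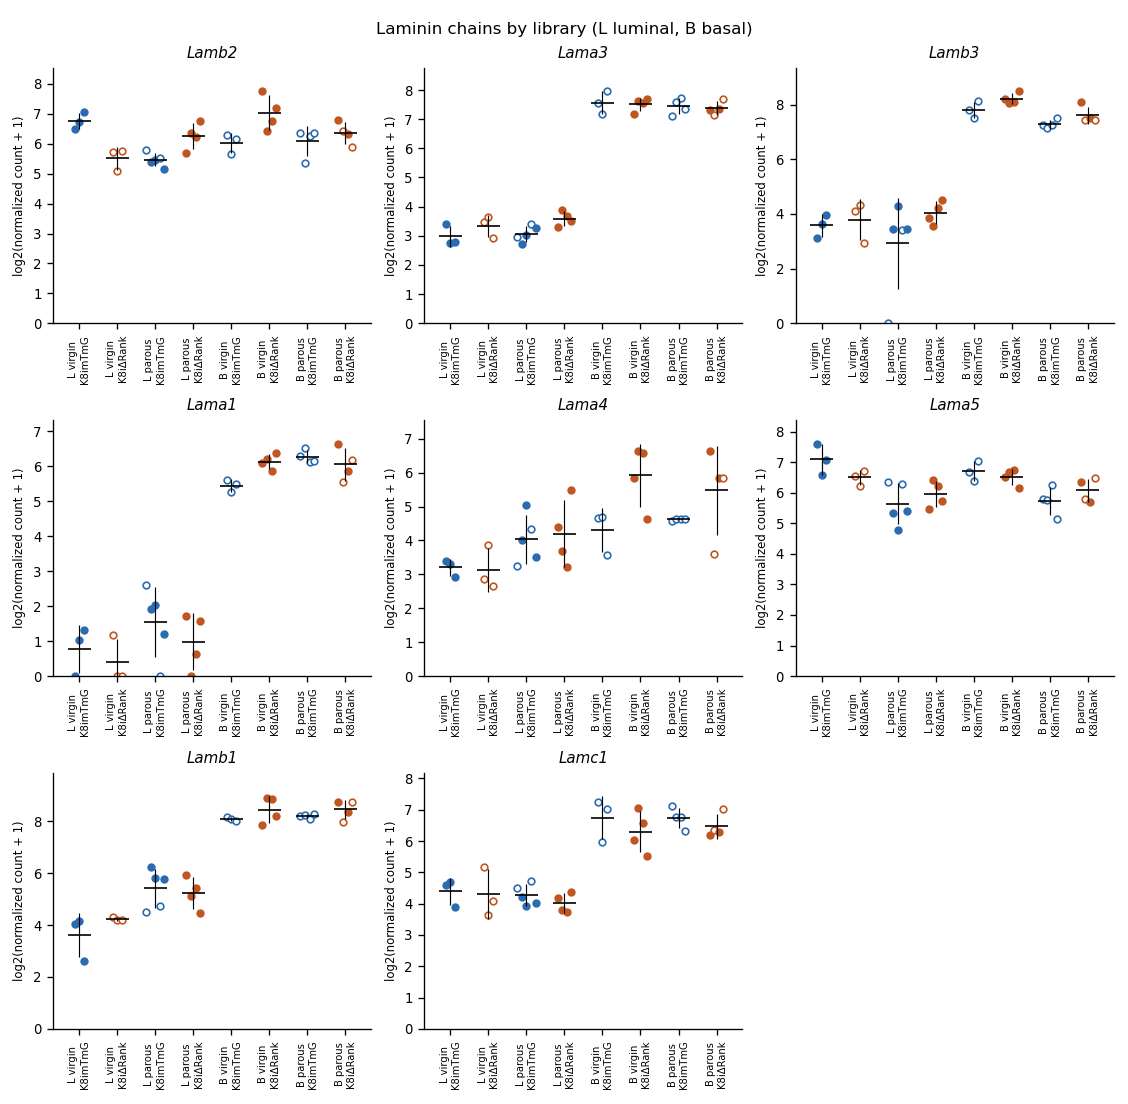
Log2 of the normalized count plus 1 (y axis) of 8 laminin chains in single libraries of the 8 groups (x axis; L luminal, B basal), blue for K8imTmG and orange for K8iΔRank, filled for Clec2d-low and open for Clec2d-high, with a bar at the mean and a line of ± 1 SD on that scale. Luminal virgin K8imTmG libraries lay at 89.7 to 132 normalized counts of Lamb2, a range that among the other luminal libraries held 1 parous K8iΔRank library, at 107.

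Tnc, which encodes tenascin C, a matrix protein of remodelling tissue (chr4:63878014-63965443), rose with parity in luminal cells of K8imTmG mice. It measured 4.49, 0.524 and 0 in virgin and 8.40, 55.2, 43.2, 54.3 and 37.6 in parous K8imTmG libraries, without overlap. The difference was 4.09 on the log2 scale (SE 0.71, adjusted p = 0.0285), and Tnc and Lamb2 were the 2 called of 30 described members tested where 2.2% of 10279 genes were called. In K8iΔRank mice it measured 6.31, 5.77 and 0 in virgin and 30.4, 5.40, 6.13 and 7.95 in parous libraries. It did not pass the filter for that comparison, and in K8imTmG mice it passed through the parous libraries, where it was high. Parous K8iΔRank libraries stood below parous K8imTmG libraries by 1.70 on the log2 scale, with overlap and without a call (adjusted p = 0.171). With Clec2d-low libraries alone the parity difference in K8imTmG was 4.50 (adjusted p = 0.0122), and 9 described members were then called in place of 2, where the share of all genes called was 12.8% in place of 2.2%. Leaving out mouse 531, 532, 533, 538, 557 or 558 ended the call (adjusted p up to 0.128). The fibroblast marker sum was 435 to 1055 in virgin and 75.5 to 420.0 in parous K8imTmG libraries, without overlap. The luminal marker sum was also lower in parous libraries without overlap, at 14692 to 20011 in virgin and 4963 to 13410 in parous K8imTmG libraries. The fibroblast marker Dcn differed by -1.72 (adjusted p = 0.182), and the fibroblast marker Pdgfra went the other way, by 1.09 (adjusted p = 0.262). The part of fibroblasts, or of a change among luminal cells, in the parity differences of Tnc and Lamb2 was not tested.

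Col23a1, a transmembrane collagen (chr11:51180566-51474745), was the 1 described member called between genotypes in parous luminal cells. It measured 0, 0.400, 0, 0 and 0 in K8imTmG libraries, 1 read in all, and 25.9, 10.3, 7.25 and 40.7 in K8iΔRank libraries, 184 reads in all. Every K8iΔRank library stood above every K8imTmG library, and the depth corrected ratio was 173 (95% exact interval for counting error 30.8 to 6889). Its log2 difference was 4.07 (SE 0.58, adjusted p = 0.0372), or 2.40 with a pseudocount of 4, where 0.0991% of 10090 genes were called (33 described members tested). In virgin libraries it measured 1.92, 1.57 and 0 in K8imTmG and 0, 1.92 and 5.28 in K8iΔRank. The parity difference in K8iΔRank mice was 2.77 (SE 0.74, adjusted p = 0.0293). It passed the filter through the K8iΔRank libraries, where it was high. In the Clec2d-low libraries the genotype difference was 4.01 (adjusted p = 0.0408). The genotype call was lost on leaving out any mouse but 494 (adjusted p up to 0.226), and the parity call without 787, 821 or 830. After quantile normalization Col23a1 was called in neither comparison, and with all 15 luminal libraries in the fit its parity call was lost.

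Agrn and Timp2 rose with parity in luminal cells of K8iΔRank mice. Agrn (chr4:156249740-156282014) measured 124, 125 and 106 in virgin and 199.8, 215, 221 and 229 in parous K8iΔRank libraries (log2 0.87, SE 0.17, adjusted p = 0.00987), without overlap, and stayed called in 7 of 7 fits that left out 1 mouse. In K8imTmG mice it measured 104, 130.0 and 109.7 in virgin and 53.8, 157, 149, 54.3 and 176 in parous libraries, and the parous libraries at 53.8 and 54.3, from mice 494 and 557, were the Clec2d-high ones. Timp2, an inhibitor that also helps activate Mmp2, measured 416, 565 and 515 in virgin and 751, 987, 652 and 1025 in parous K8iΔRank libraries (log2 0.76, SE 0.21, adjusted p = 0.0361). These 2 genes and Col23a1 were the 3 called of 32 described members tested, where 16% of 10249 genes were called. All virgin K8iΔRank luminal libraries were Clec2d-high and all parous ones Clec2d-low, so parity and that split cannot be told apart here. The Timp2 call was lost without mouse 787, 794, 821, 825 or 830. With all 15 luminal libraries in the fit neither Agrn nor Timp2 was called, and 227 of the 10249 genes were called in place of 1643. In this comparison the fibroblast markers Dcn (-1.89), Gsn (-1.19) and Clec3b (-2.68) were lower in parous libraries, and their part was not tested.

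**Figure D4:**
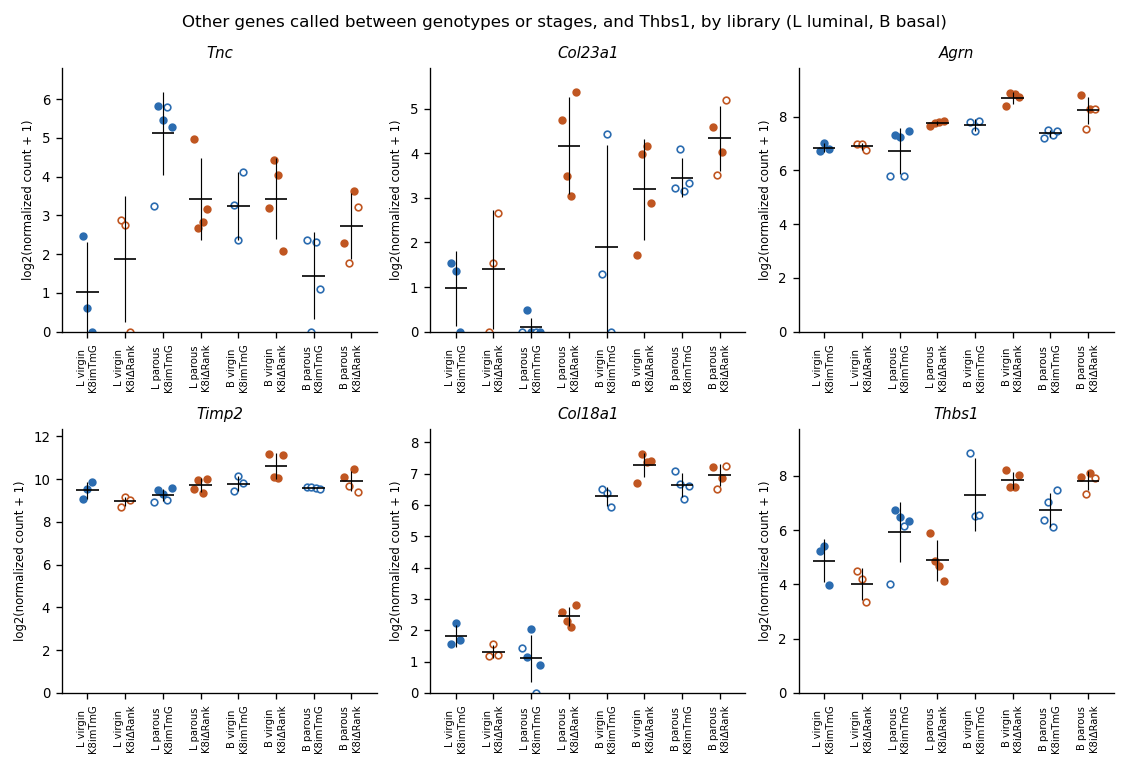
Log2 of the normalized count plus 1 (y axis) of Tnc, Col23a1, Agrn, Timp2, Col18a1 and Thbs1 in single libraries of the 8 groups (x axis), with colours, fills, mean bars and ± 1 SD lines as for the laminins. Parous luminal K8imTmG libraries were at or near 0 for Col23a1 and reached 55.2 normalized counts for Tnc.

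In virgin basal cells 2 of the 56 described members were higher in K8iΔRank mice, although these cells were not the target of the deletion. Agrn measured 221, 174 and 228 in K8imTmG and 334, 468, 457 and 421 in K8iΔRank libraries (log2 1.01, SE 0.21, adjusted p = 0.0208). Col18a1 measured 90.5, 82.7 and 59.8 against 104, 196, 165 and 166 (log2 1.00, SE 0.27, adjusted p = 0.0497). The genotypes overlapped in neither. In all, 8.99% of 10616 genes were called, and the median log2 difference was 0.25 over the members and 0.06 over all genes.

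Of the 56 members 16 had an unadjusted p below 0.05, 13 of them higher in K8iΔRank, as did 3111 of the 10616 genes in either direction. Among the members not called, Fbln2 and Col4a1 are given here. Fbln2, a fibulin of vessel walls and basement membranes, measured 99.1, 33.1 and 10.9 against 113, 305, 251 and 107 (log2 2.36, adjusted p = 0.0507), and Col4a1 593, 347 and 321 against 624, 997, 978 and 567 (log2 0.92, adjusted p = 0.0762). The endothelial marker sum was 827, 475 and 315 in K8imTmG and 1746, 720.0, 1387 and 448 in K8iΔRank libraries, and the Schwann sum 1771, 6002 and 1587 against 1829, 698, 739 and 972. The Schwann cell gene Mbp (-2.72) was called as lower in K8iΔRank libraries. The part of these cells in the members' differences was not tested. The 3 K8imTmG libraries were the Clec2d-high and the 4 K8iΔRank libraries the Clec2d-low ones, so genotype and that split cannot be told apart. Leaving out mouse 538 or 825 ended the call of Agrn (adjusted p up to 0.0690), and leaving out any mouse but 820 that of Col18a1 (up to 0.133). Col18a1 was also not called with no filter, by edgeR or by DESeq2.

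**Figure D5:**
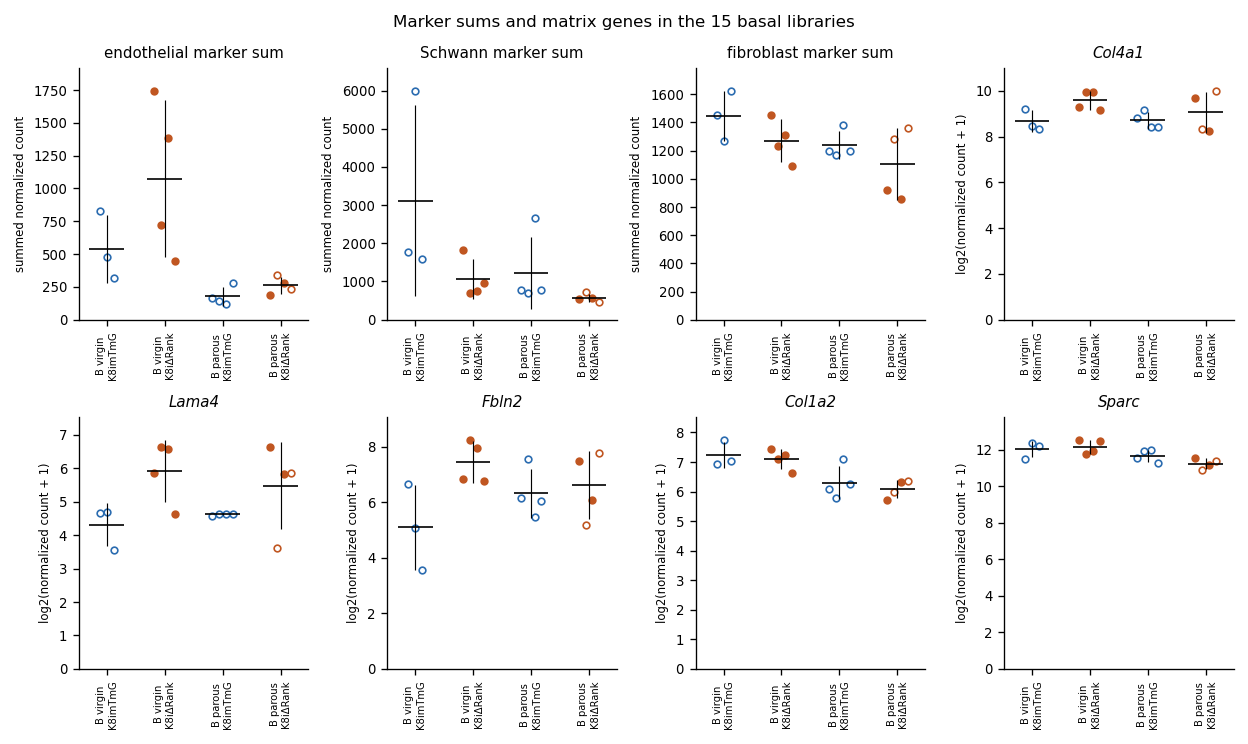
Summed normalized counts of endothelial, Schwann and fibroblast markers (linear y axes) and log2 of the normalized count plus 1 of Col4a1, Lama4, Fbln2, Col1a2 and Sparc (y axes) in the 15 basal libraries by group (x axis), with colours, fills, mean bars and ± 1 SD lines as for the laminins. Endothelial sums reached 1746 in virgin K8iΔRank and did not exceed 339 in parous libraries.

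In parous basal cells none of the 55 described members tested was called between genotypes, where 0.906% of 10592 genes were called and 22.6% had an unadjusted p below 0.05. Of these 55 members 3 had an unadjusted p below 0.05, all higher in K8iΔRank. Thbs1 measured 81.6, 131, 67.7 and 177 in K8imTmG and 245, 159, 278 and 239.5 in K8iΔRank libraries (log2 1.08, SE 0.30, adjusted p = 0.0829), and the genotypes overlapped. Agrn measured 144, 179, 159 and 177 against 442, 187, 309.9 and 313 (log2 0.86, SE 0.24, adjusted p = 0.0832), with no overlap. edgeR called 67 genes and no member, and DESeq2 called 645 genes and these 2 members. Leaving out K8iΔRank mouse 794, whose Agrn value was the lowest of its group, raised the calls from 96 to 1050 genes and gave 3 members, Agrn, Lama4 and Thbs1. Leaving out K8imTmG mouse 558 gave 195 genes and 1 member. All 4 K8imTmG libraries were Clec2d-high, and of the K8iΔRank libraries 2 were high (mice 794 and 830) and 2 low. Depth did not overlap, at 450064 to 1365008 reads in K8imTmG and 1844364 to 2996649 in K8iΔRank libraries, and its part was not tested.

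Parity in basal cells gave no called gene at all in K8imTmG mice (0% of 10538 genes; 9.2% had an unadjusted p below 0.05) or in K8iΔRank mice (0% of 10525; 9.84%). In K8imTmG mice 9 of 55 described members had an unadjusted p below 0.05, 8 of them lower in parous libraries. Timp3 measured 1817, 2463 and 3103 in virgin and 1220.3, 1356, 1752 and 1403 in parous libraries (log2 -0.76, adjusted p = 0.366). Lama1 measured 47.4, 37.2 and 43.5 against 77.4, 90.9, 67.7 and 69.4 (log2 0.82, adjusted p = 0.382). In both genes the values did not overlap. The endothelial marker sum was 315 to 827 in the virgin and 119 to 279 in the parous K8imTmG libraries, without overlap, and its part was not tested. edgeR called 8 genes and DESeq2 40 genes, none of them a member.

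In K8iΔRank mice 12 of 56 described members had an unadjusted p below 0.05, each lower in parous libraries, and the median log2 difference was -0.34 over the members and 0.0027 over all genes. Col1a2 measured 171, 136, 151 and 98.8 in virgin and 51.9, 62.2, 78.3 and 80.7 in parous libraries (log2 -1.01, adjusted p = 0.284), and Timp4 117, 33.5, 69.8 and 18.3 against 8.58, 11.96, 11.9 and 3.62 (log2 -2.39, adjusted p = 0.284). Both were without overlap. DESeq2 called 89 genes, among them the members Col1a2, Sparc and Timp4, and edgeR called 0 genes. The endothelial sum was 191 to 339 in the parous libraries and 448 to 1746 in the virgin ones, and its part was not tested. No member passed the test of genotype by stage in basal cells (56 described members tested; 0% of 10607 genes called, 10.2% with an unadjusted p below 0.05), where Col12a1 at 1.53 (adjusted p = 0.313) and Lama1 at -0.90 (adjusted p = 0.421) had the lowest p. In that test 3 members had an unadjusted p below 0.05, edgeR called 0 genes and DESeq2 called 10 genes and no member.

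Other genes of matrix assembly, from lists of pathway genes, were mostly higher in basal cells too, where 27% of all genes tested were higher in basal and 28.7% in luminal cells. Of 22 genes of collagen folding and cross-linking (median log2 -1.34), 14 were higher in basal cells, led by the lysyl oxidase Loxl3 (-5.29) and the procollagen protease Adamts2 (-4.52), and 3 in luminal cells, led by the prolyl hydroxylase subunits P4ha2 (1.72) and P4hb (0.29). Of 22 matrix receptors (median -0.92), 17 were higher in basal cells, led by the integrin chains Itga1 (-5.11) and Itga9 (-5.04), and 2 in luminal cells, Itgb6 (1.59) and Sdc4 (0.89). Of 23 other matrix proteins (median -3.02), 18 were higher in basal cells, led by elastin Eln (-6.65) and fibromodulin Fmod (-6.47), and 3 in luminal cells, led by Npnt (3.08) and Ntn1 (2.97). Of 19 other proteases and inhibitors (median -0.86), 10 were higher in basal cells, led by Plat (-5.43) and Adamts1 (-4.61), and 4 in luminal cells, led by Adam10 (2.12) and St14 (1.81).

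Within luminal cells the pathway lists gave few calls, and their counts are read against the share of all genes called in the same comparison. Between virgin genotypes none of 15 folding genes, 18 receptors, 11 other matrix proteins and 13 proteases and inhibitors was called (0.984% of all genes). Between parous genotypes 1 of 12 other matrix proteins was called, Ntn4, a netrin that binds laminin gamma chains, higher in K8iΔRank by 2.83 (SE 0.35, adjusted p = 0.0243). The protease inhibitor Serpine2, 1 of 12 proteases and inhibitors, was higher by 4.01 (SE 0.54, adjusted p = 0.0352). None of 14 folding genes and 19 receptors was called there (0.0991% of all genes). The calls of Ntn4 and Serpine2 were both lost on leaving out any of the 4 K8iΔRank mice, that of Ntn4 also without 532 and that of Serpine2 without 534 or 558.

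With parity in K8imTmG luminal cells 2 of 19 receptors were higher, Cd44 (1.84) and Itgb8 (1.44), and 1 was lower, Itgav (-1.35), where 2.2% of all genes were called. Of 14 folding genes the collagen chaperone Serpinh1 (2.02) was higher and Plod1 (-2.54), a lysyl hydroxylase, lower. Ntn4 (-2.10) was the 1 of 11 other matrix proteins that was lower, and Adamts15 (1.68) the 1 of 13 proteases and inhibitors that was higher. Each of these 7 calls was lost on leaving out mouse 531, 532, 533, 538, 557 or 558. With parity in K8iΔRank luminal cells 16% of all genes were called, and the glycosyltransferase Colgalt1 (1.02) and the chaperone Fkbp10 (1.84) were higher and P4ha2 (-1.72) and Ppib (-1.06) lower among 17 folding genes. Of 19 receptors Bcam (1.01), which binds laminin, and Itgav (0.84) were higher and Sdc1 (-0.83) lower. Tinagl1 (-1.59) was lower among 11 other matrix proteins, and of 13 proteases and inhibitors Adamts1 (0.99) and Adam15 (0.80) were higher and Adam10 (-1.04) lower. Of these 11 calls, 1 (Fkbp10) held with all 15 luminal libraries in the fit, and 3 (Adam10, P4ha2 and Tinagl1) held in 7 of 7 fits that left out 1 mouse.

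The test of luminal genotype by stage called the integrin chains Itgav (2.18, SE 0.36, adjusted p = 0.00765) and Itgb4 (1.80, SE 0.57, adjusted p = 0.0496) among 19 receptors, in the same direction as Lamb2. Ntn4 (3.45, SE 0.67, adjusted p = 0.0106) and Ecm1 (2.89) were called in that direction among 11 other matrix proteins, and Adam15 (2.18) among 12 proteases and inhibitors. Of 15 folding genes Fkbp10 (2.63) and Plod1 (2.20) were positive and Serpinh1 (-2.37) and Ppib (-1.45) negative. In that test 12.9% of all genes were called. With the Clec2d side as a covariate 5 of the 10262 genes were called, and none of these 9 genes. Itgb4 lost its call in 11 and Ecm1 in 13 of 15 fits that left out 1 mouse, whereas Itgav, Ntn4, Adam15 and Fkbp10 stayed called in 15 of 15.

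In virgin basal cells the proteases Plat (-1.78) and Plau (-1.65), which activate plasminogen, and Ctsl (-1.17) were lower in K8iΔRank mice and Htra1 (1.63) higher, of 18 proteases and inhibitors. Itgav (0.83) was higher among 21 receptors, Vwa1 (1.08) among 23 other matrix proteins and Colgalt1 (1.43) among 21 folding genes. In this comparison 8.99% of all genes were called. Plat and Ctsl stayed called in 7 of 7 fits that left out 1 mouse, and the other 5 of these 7 calls were lost in 1 to 6 of them. No gene of the 4 lists was called in the other basal comparisons.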

How the data were processed

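Luminal and basal mammary cells were profiled by 3′ QuantSeq with unique molecular identifiers. The authors removed adapter and poly(A) sequence, deduplicated by identifier, aligned to GRCm39 and deposited 1 table of signal values, gene counts divided by DESeq2 size factors (the submitters' processing notes name FastQC 0.11.9; genes kept above 10 in 25% of libraries). The values are whole reads times a factor for each library (100% of values whole within 0.1 read; 1 read was 0.381 to 5.43 normalized counts), so reads were recovered for count tests. 3′ counting sees 1 end of a transcript and no isoform. Read intervals cover counting error only.

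Here log2(normalized count + 1) was fitted with limma 3.58.1 (R 4.3.3; trend), for 2 groups at a time, 8 groups for lineage or 4 for genotype by stage, on genes above 10 in 25% of the libraries of the fit. Alternatives were edgeR 4.0.16 and DESeq2 1.42.0 on reads, a pseudocount of 4, no filter, quantile normalization, the Clec2d side (30 normalized counts), all 15 libraries of a lineage, leaving out each mouse, and the mouse as a block. The label number was taken as the mouse. Over 13 mice with both lineages, the correlation of their deviations from group means was -0.238 to 0.341, which does not settle this. The Clec2d side differed between lineages in most of these mice, such as 531 (luminal 0.641, basal 165) and 822 (luminal 146, basal 2.03). It was the same in mice 557, 787 and 798. Mice are the replicates. Named members were, by rule, up to 4 called per role for lineage, every called member of another comparison or else the 2 with the lowest p, and a set list of anchoring, network and stromal genes. Fbln2 and Col4a1 in virgin basal cells and some laminin chains in luminal cells were named beyond this rule. The scripts were tested on simulated data. Some items, 1 member among them, are not reported here. Membership rested on gene symbols alone, but the symbol rule and the lists were chosen with earlier results of these data known. Analyses used Python 3.11.15.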

Additional observations from a re-analysis of the deposited data

Results flagged for a closer look

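A test for a library standing apart in groups of 4 to 10 flagged 9 of 115 groups tested over 23 genes, where chance flags about 1 in 20. Of the 9, 5 were the parous luminal K8imTmG library of mouse 494: Col1a1 at 1.68 (others 12.8 to 25.6), Col4a2 at 0 (6.92 to 12.8), Lamb3 at 0 (9.59 to 18.5), Thbs1 at 15.1 (70.3 to 105) and Tnc at 8.40 (37.6 to 55.2). In that library 1 read was 1.68 normalized counts. In the same group Col23a1 was 0.400 in mouse 532, which is 1 read, and 0 in the others. In parous luminal K8iΔRank libraries Col17a1 was 0.491 in mouse 794, also 1 read, and 0 in the others. Where all other values are 0 the test flags any value above 0, so the flags of Col23a1 and Col17a1 show nothing more. In parous basal libraries Lamb2 was 40.1 in K8imTmG mouse 534 (others 75.6 to 81.9), and Lamb3 was 269.8 in K8iΔRank mouse 787 (others 171 to 184). The genotype difference differed between stages in luminal cells for Lamb2, by 2.03 on the log2 scale.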

How the results depend on the processing

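In the lineage comparison 50 of the described members were called as reported, 49 to 52 under the other settings, 48 to 50 when 1 mouse was left out, and 50 with the mouse as a replicate block on 26 libraries of 13 mice. The block lost Lamb2 and gained Col11a1. Tnc, not called between lineages, turned to -0.066 with the Clec2d side as a covariate, -0.033 without mouse 531 and -0.023 without mouse 787 (-0.033 to 0.27 over all such fits). The other comparisons are given as described members called, with the genes called among all tested in parentheses. For virgin luminal genotypes, 0 (99) as reported, they were 2 (648) by DESeq2, 1 (98) with all 15 libraries and 0 to 1 (0 to 247) leaving out 1 mouse. For parous luminal genotypes, 1 (10), they were 0 (11) after quantile normalization, 5 (611) by DESeq2, 2 (44) with all 15 libraries and 0 to 1 (0 to 21). For K8imTmG luminal parity, 2 (226), they were 6 (1060) by DESeq2, 4 (794) with all 15 libraries, 9 (1285) in Clec2d-low libraries and 0 to 6 (3 to 732). For K8iΔRank luminal parity, 3 (1643), they were 0 (227) with all 15 libraries and 1 to 4 (729 to 1570). For virgin basal genotypes, 2 (954), they were 4 (1107) with a pseudocount of 4, 1 (918) with no filter, 5 (1071) after quantile normalization, 1 (870) by edgeR, 4 (1162) by DESeq2, 6 (1804) with all 15 libraries and 0 to 4 (281 to 953). For parous basal genotypes, 0 (96), they were 2 (645) by DESeq2 and 0 to 3 (0 to 1050), and for K8iΔRank basal parity, 0 (0), they were 3 (89) by DESeq2. For luminal genotype by stage, 1 (1326), they were 3 (1232) with no filter, 2 (1327) after quantile normalization, 3 (1990) by DESeq2, 0 (5) with the Clec2d side as a covariate and 1 to 2 (336 to 1533) leaving out 1 mouse. The cause was not tested. Of 806 fits that left out a mouse, for called values of members named by the rule, 761 kept the call and 45 lost it. No called value changed direction. Most of these fits were of lineage values, where only Timp1 lost its call. The lineage value of Lamb2 was not among them, and its call was lost without several mice, as given above. The losses fell on 8 of 52 values. Of the calls between genotypes or stages, only 2 were kept in every such fit: Agrn with parity in K8iΔRank luminal cells and Lamb2 for luminal genotype by stage. Shallow basal virgin K8imTmG libraries limit what low genes can show.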
